A study of Mus musculus with 22 samples.

Results

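Livers of mice given lipid nanoparticles at the lower of the study's particle doses, 0.2 mg/kg, were compared with livers of control mice, gene by gene. The comparison holds 15 of the 22 livers in the series, 8 at 0.2 mg/kg and 7 controls, and they were chosen by the column names of the deposited table and not by any measured value. Of 129 genes tested in 10 lists of interferon signalling, response and antigen presentation, 82 rose at 0.2 mg/kg and none fell. List medians of the log2 difference ran from 0.06 for receptors and transcription factors to 1.63 for guanylate-binding proteins, and the immunoproteasome had 1.12. Some of the 82 were near the floor in controls and could pass the filter on low values through the treated livers. Among targets of the oxidative stress factor NRF2 15 of 29 rose, and among cytosolic heat shock genes 8 of 20. Falls were smaller, and were called in 10 of 13 respiratory chain transcripts encoded in mitochondria, 28 of 76 ribosomal protein genes, 7 of 27 genes of the unfolded protein response, 7 of 30 for protein entry into the endoplasmic reticulum and N-glycosylation and 6 of 41 for fatty acid oxidation. Over all 9379 genes tested, 3.59% rose and 1.82% fell.

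All mice carried the C57BL6J genotype and every liver was flushed with PBS before RNA was taken. The 8 treated mice received the particles intravenously and were killed 24 h later. The particles held an RNA labelled Dsi-RNA, the usual short form for a Dicer-substrate short interfering RNA, which the labels call a positive control and whose target the column names give as Hprt. The labels state no injection for the controls, so the effects of the RNA, the lipids and the injection itself cannot be told apart. Another 4 livers came from mice given 0.2 mg/kg particles 24 h after BLT-1 at 1 mg/kg, an inhibitor of the scavenger receptor SR-B1, and 3 livers from mice given 2 mg/kg. Each liver was 1 numbered animal, and neither ages nor sexes are given.

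Lipid nanoparticles given into a vein collect in the liver, where hepatocytes take them up by receptors for lipoproteins and Kupffer cells, the resident macrophages, by phagocytosis. Double-stranded RNA can be bound inside cells by sensors such as MDA5, LGP2 and ZBP1 and by receptors in endosomes. Interferons made in response act through JAK kinases and factors of the STAT and IRF families, which bind short repeated motifs in the promoters of many genes. The products of these genes block viral RNA, mark and destroy foreign compartments, and increase the display of peptides on MHC class I.

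Libraries read the 3' ends of transcripts and held 7152596 to 13939588 reads in the 15 livers. Levels are given in CPM, the gene reads of a library brought to a common total and scaled by TMM on genes, and differences as log2 of the level plus 1, at 0.2 mg/kg minus control, with the standard error from limma. Spike-in reads made up 4.30 ± 1.22% of the controls (SD, n = 7) and 5.04 ± 1.23% at 0.2 mg/kg (SD, n = 8). Defining hepatocyte markers were high in every liver, with a summed level of 20780 to 25710 CPM in controls and 19540 to 22200 at 0.2 mg/kg. Controls 28 and 29 stood apart from the other 5 controls: the median of 31 acute phase genes lay 0.81 and 0.82 above the control mean on the log2 scale in these livers, and 0.69 to 0.08 below it in the others (-0.69 to -0.08). The Y-linked helicase Ddx3y, read at 15.6 to 18.5 CPM in controls and 16.4 to 18.9 at 0.2 mg/kg, did not separate the groups.

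Hprt, whose product recycles hypoxanthine and guanine, was not detectably lower at this dose. Its level ran from 24.97 to 38.97 CPM in controls (median 28.3) and from 26.0 to 30.9 at 0.2 mg/kg (median 27.6). The 8 treated livers lay inside the range of the controls, whose highest values came from controls 28 and 29. The log2 difference was -0.09 ± 0.08, with a two-sided exact permutation p of 0.313 over 6435 regroupings, where the smallest possible p is 0.000155. On the deposited spike-in scale the difference was -0.23 (exact p = 0.335), and without controls 28 and 29 it was 0.03 (exact p = 0.538). Where 3.59% of all genes tested rose and 1.82% fell, 2 of 20 genes of purine metabolism rose and none fell. These were Xdh, xanthine dehydrogenase, from a median of 12.7 to 23.5 CPM (0.82 ± 0.08, adjusted p = 6.11e-06), and Pnp, purine nucleoside phosphorylase (0.45 ± 0.10, adjusted p = 0.0122).

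Across all genes, 508 of 9379 tested (5.42%) passed an adjusted p of 0.05 by limma with Benjamini-Hochberg adjustment, of which 337 (3.59%) were higher and 171 (1.82%) lower at 0.2 mg/kg. The balance of higher against lower calls moved with the scaling. It was 287 to 286 with upper-quartile factors, 73 to 19 on the deposited spike-in scale, 290 to 249 by edgeR and 308 to 305 by DESeq2. On the deposited scale the median of all genes was -0.11, so values on it are read against that shift. Rises were larger than falls: the median log2 difference was 0.45 in genes called higher and -0.27 in genes called lower, against 0.01 over all genes tested. A difference of at least 1 was seen in 56 genes called higher and in 1 called lower. Levels of the 8 and 7 livers did not overlap at all in 236 genes (2.52%), of which 169 were called higher and 61 lower.

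**Figure D1:**
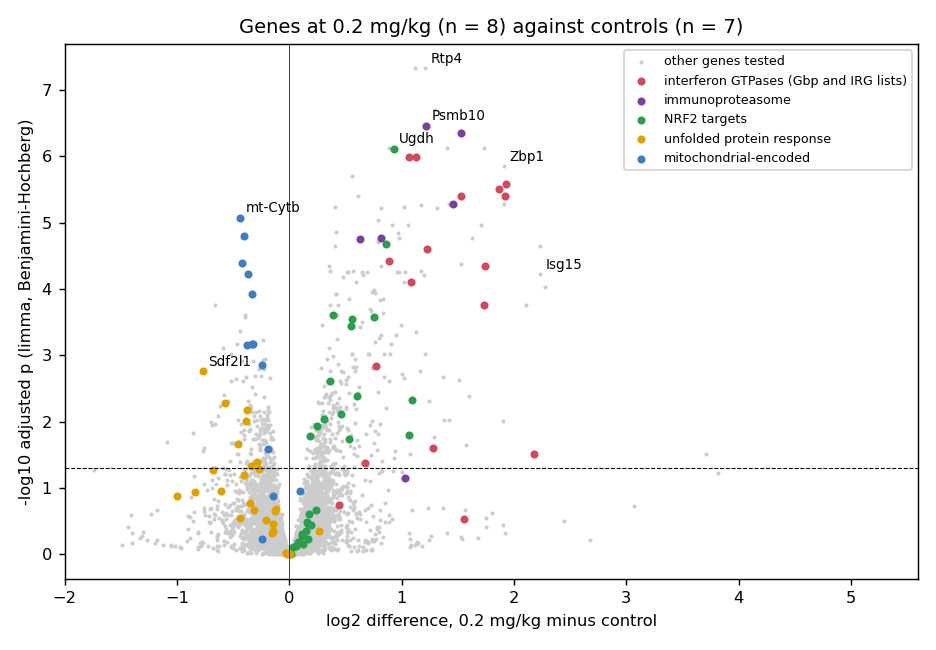
Each point is 1 of 9379 genes, with the log2 difference (0.2 mg/kg, n = 8, minus control, n = 7) on the x axis and -log10 of the limma adjusted p on the y axis; the dashed line marks 0.05. Interferon GTPases and immunoproteasome subunits lie to the right, mostly near differences of 1 to 2, NRF2 targets to the right and mostly nearer 0, and mitochondrial-encoded transcripts and unfolded protein response genes mostly to the left.

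The animal numbers fall into 3 runs, each of which holds both groups, and the labels do not say what the runs are. No gene had an effect that differed between the runs at an adjusted p of 0.05 by a limma F test of the interaction. At an unadjusted p of 0.05, 755 of 9379 did, more than the share of 0.05 that equal effects would give. The first and second runs hold 2 livers of each group, so differences between runs could be missed. Within the runs the log2 difference of Rtp4 was 1.17, 1.20 and 1.24, that of Ugdh was 0.84, 0.91 and 1.01, and that of mt-Cytb was -0.49, -0.31 and -0.48. These 3 genes thus moved the same way in every run.

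Interferon genes were described by 10 lists, from sensors to antigen presentation, with 129 members tested. Of these, 82 were called higher and none lower, and the lists held 35 of the 56 genes that rose by at least 1. The filter of 1 CPM in at least 7 livers could be met by a single group alone. Some called members averaged below 1 CPM in controls, such as Gbp10 at 0.513 and Eif2ak2 at 0.959. The counts thus include genes that could pass the filter through the treated livers, and they are given as description only. Sensors of nucleic acid came first: 7 of 13 tested rose, none fell, and the median difference was 0.51. Zbp1, a sensor of Z-form nucleic acid that can trigger cell death, ran from 5.59 to 14.03 CPM in controls (median 12.1) and from 35.6 to 49.5 at 0.2 mg/kg (median 43.8). Every treated liver thus held more Zbp1 than any control (1.91 ± 0.16, adjusted p = 1.43e-06). Ifih1, which encodes the double-stranded RNA sensor MDA5, rose from a median of 2.84 to 5.62 (0.74 ± 0.10, adjusted p = 1.10e-04). Dhx58, which encodes its partner LGP2, rose from a median of 1.00 to 3.69 (1.12 ± 0.17, adjusted p = 4.46e-04).

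Among 18 receptors, kinases and transcription factors of interferon signalling, only 3 were called, all higher, and the list median was 0.06. Irf7, the factor that amplifies type I interferon production, read 3.13 to 10.2 CPM in controls (median 8.6) and 24.1 to 35.2 at 0.2 mg/kg (median 25.7), without overlap (1.71 ± 0.17, adjusted p = 1.09e-05). Irf9, a DNA-binding subunit of the complex that type I interferon activates, rose less, from a median of 6.31 to 8.75 with overlapping groups. Its difference of 0.42 ± 0.11 had an adjusted p of 0.0267, which became 0.0731 without controls 28 and 29.

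**Figure D2:**
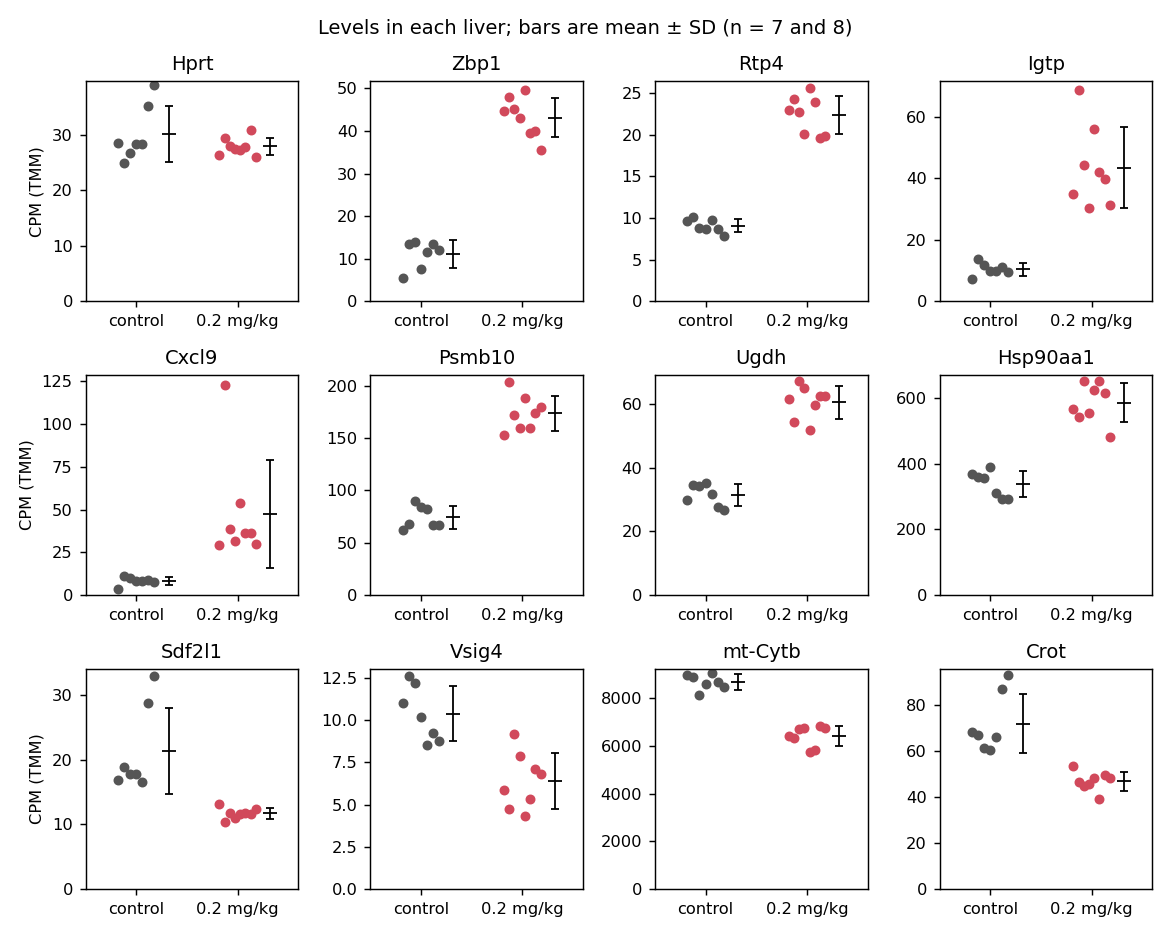
Level in CPM (linear axis from 0) of 12 genes in each control (grey, n = 7) and each liver at 0.2 mg/kg (red, n = 8), with the mean ± SD beside the points. Hprt overlaps between groups, the 5 interferon and proteasome genes and Ugdh and Hsp90aa1 sit higher in every treated liver, Sdf2l1, mt-Cytb and Crot sit lower in every treated liver, and Vsig4 is lower with overlap.

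Most interferon-induced GTPases tested rose. These proteins gather on the membranes of vacuoles that hold pathogens and help to break them. Of 8 guanylate-binding proteins tested 7 rose, with a median difference of 1.63, and of 9 immunity-related GTPases 8 rose, with a median of 1.13. Some members were near the floor in controls, such as Gbp10, which averaged 0.513 CPM there and 4.26 at 0.2 mg/kg. Igtp (IRGM3) read 7.22 to 13.9 CPM in controls (median 9.79) and 30.2 to 68.6 at 0.2 mg/kg (median 41.0; 1.93 ± 0.17, adjusted p = 2.59e-06). Gbp6 went from 2.18 to 4.86 in controls (median 3.68) to 13.1 to 27.6 (median 13.8; 1.87 ± 0.16, adjusted p = 3.17e-06). In both genes the lowest control was control 1 and the highest treated liver was liver 5.

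Iigp1 (IRGA6), which disrupts the vacuole of Toxoplasma in mice, read 111 to 153 CPM in controls (median 132) and 226 to 325 at 0.2 mg/kg (median 279), with no overlap (1.07 ± 0.08, adjusted p = 1.03e-06). Gbp3, Gbp7, Gbp2, Gbp10 and Ifi47 (IRGD) rose by 1.92, 1.53, 1.73, 1.75 and 1.13 on the log2 scale, each without overlap between groups (limma adjusted p from 1.04e-06 for Ifi47 to 1.76e-04 for Gbp2). Genes of both families lie in clusters of similar copies, so reads may be shared among them.

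ISG15 is a ubiquitin-like protein that is joined to other proteins by UBA7, HERC6 and partners and removed by USP18. All 5 genes of this system that were tested rose, without overlap, with a median difference of 1.41. Isg15 read 10.1 to 39.9 CPM in controls (median 31.7) and 97.3 to 213 at 0.2 mg/kg (median 119; 2.23 ± 0.26, adjusted p = 5.98e-05). The activating enzyme Uba7 rose from a median of 18.2 to 53.8 (1.41 ± 0.11, adjusted p = 7.49e-07), the ligase Herc6 from 10.6 to 39.9 (1.91 ± 0.18, adjusted p = 5.20e-06) and the protease Usp18 from 2.59 to 5.97 (0.91 ± 0.14, adjusted p = 6.69e-04).

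The RNA-binding Ifit and Oas families were likewise higher, in 6 of 6 genes tested, with a median of 1.40. Ifit1, which binds foreign RNA caps, read 4.36 to 9.32 CPM in controls (median 6.10) and 15.3 to 22.03 at 0.2 mg/kg (median 17.9; 1.42 ± 0.13, adjusted p = 5.22e-06). Ifit3 and its near copy Ifit3b rose by 2.11 ± 0.28 and 1.63 ± 0.17, and Oasl1 by 0.95 ± 0.14. Reads of Ifit3 and Ifit3b are hard to assign between them.

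A list of 41 other antiviral effectors held 30 genes that rose and none that fell, with a median of 0.59. Rtp4, an interferon-induced inhibitor of viral replication, had the smallest adjusted p of the interferon lists. It read 7.89 to 10.2 CPM in controls (median 8.75) and 19.6 to 25.6 at 0.2 mg/kg (median 22.8; 1.21 ± 0.07, adjusted p = 4.76e-08). The treated livers varied little around their median. Bst2 (tetherin), which holds budding virions at the cell surface, rose from a median of 20.7 to 55.2, Apol9b from 9.57 to 18.7 and Ifi27 from 270 to 513, each without overlap (limma adjusted p of 5.99e-06, 5.90e-06 and 7.49e-07). Ifi44 was among the largest rises, from a median of 7.51 to 33.1 (2.23 ± 0.24, adjusted p = 2.23e-05), and control 1 was far below the other controls at 2.32.

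Promoters of these genes were read for the interferon-stimulated response element, spelled as GAAA, any 2 bases, GAAA on either strand, in 250 bases before to 50 after each start in RefSeq (GRCm38.p6). It was in 3.44% of 32851 promoters of all genes and in 3.19% of those of genes tested. Among the genes called higher, 252 of 337 matched RefSeq by symbol, and 52 of their 336 promoters (15.5%) held the motif. Among the genes called lower, 109 of 171 matched, and 5 of 134 promoters (3.73%) held it. Among genes that rose by at least 1, 38 of 56 matched and 21 of 46 promoters (45.7%) held it. The gamma-activated site, TTC, any 3 bases, GAA on either strand, was in 8.30% of all promoters and 6.76% of those of genes tested. It was in 8.63% of those of genes called higher, 3.73% of those called lower and 21.7% of those that rose by at least 1. A match describes letters only and is not evidence of binding. The windows below are from named genes with the first motif, with 30 bases on each side of it, in capitals where the motif lies. A match on the opposite strand reads TTTC, 2 bases, TTTC. They are Igtp at chr11:58199492-58199561 (plus strand, 34 bases before the start), Gbp7 at chr3:142530253-142530322 (plus, 53 before), Gbp3 at chr3:142559969-142560044 (plus, 45 before), Ifit1 at chr19:34640755-34640843 (plus, 104 before) and H2-T22 at chr17:36042894-36042963 (minus, 191 before). Gbp3 and Ifit1 each hold 2 matches, which overlap in Gbp3, and none of these matches overlaps another motif that was searched.
Igtp: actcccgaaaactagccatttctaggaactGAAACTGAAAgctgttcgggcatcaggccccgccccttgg
Gbp7: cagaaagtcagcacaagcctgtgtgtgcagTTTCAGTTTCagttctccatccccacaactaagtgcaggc
Gbp3: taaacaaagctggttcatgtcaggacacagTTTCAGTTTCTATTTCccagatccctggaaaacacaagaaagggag
Ifit1: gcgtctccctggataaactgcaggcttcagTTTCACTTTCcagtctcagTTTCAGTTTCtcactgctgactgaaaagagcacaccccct
H2-T22: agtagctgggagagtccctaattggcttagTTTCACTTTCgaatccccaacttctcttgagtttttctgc

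Genes of antigen presentation on MHC class I rose in part, while no class II gene passed the test. Of 16 class I and peptide transport genes, 11 rose, none fell, and the median was 0.54. H2-D1, a classical class I heavy chain, read 120 to 146 CPM in controls (median 134) and 186 to 220 at 0.2 mg/kg (median 199; 0.56 ± 0.05, adjusted p = 2.00e-06). The non-classical H2-T22 rose from a median of 11.7 to 24.3 and H2-Q7 from 29.6 to 55.5, without overlap (adjusted p of 5.41e-06 and 1.09e-05), though reads are hard to assign among H2 genes. Erap1, the peptidase that trims peptides for class I, rose from a median of 4.097 to 6.71 (0.61 ± 0.05, adjusted p = 3.94e-06). None of the 7 class II genes was called in either direction, with a median of 0.09. The class II chain H2-Aa read 24.6 to 32.9 in controls and 25.6 to 38.2 at 0.2 mg/kg (0.03 ± 0.08, adjusted p = 0.898). Ctss, the protease that prepares class II for loading, read 22.98 to 27.3 and 23.97 to 32.95 (0.09 ± 0.06, adjusted p = 0.483).

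The immunoproteasome replaces 3 catalytic subunits of the standard proteasome and yields peptides suited to class I. Of 6 genes, 5 rose without overlap, with a median of 1.12. Psmb10 read 62.1 to 90.1 CPM in controls (median 68.0) and 153 to 203 at 0.2 mg/kg (median 173; 1.22 ± 0.08, adjusted p = 3.46e-07). Psmb8 rose from a median of 14.3 to 38.5 and Psmb9 from 16.4 to 45.0 (adjusted p of 4.45e-07 and 5.22e-06), and the activator subunit Psme1 from 178 to 301 (0.81 ± 0.09, adjusted p = 1.73e-05). The standard proteasome moved less: 11 of 31 subunits rose and none fell, with a median of 0.16. Psma1, a subunit of the outer ring, rose from a median of 62.6 to 83.4 (0.41 ± 0.04, adjusted p = 2.29e-05), and Psmc5, an ATPase of the cap, from 32.6 to 38.8 (0.36 ± 0.07, adjusted p = 0.00404).

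**Figure D3:**
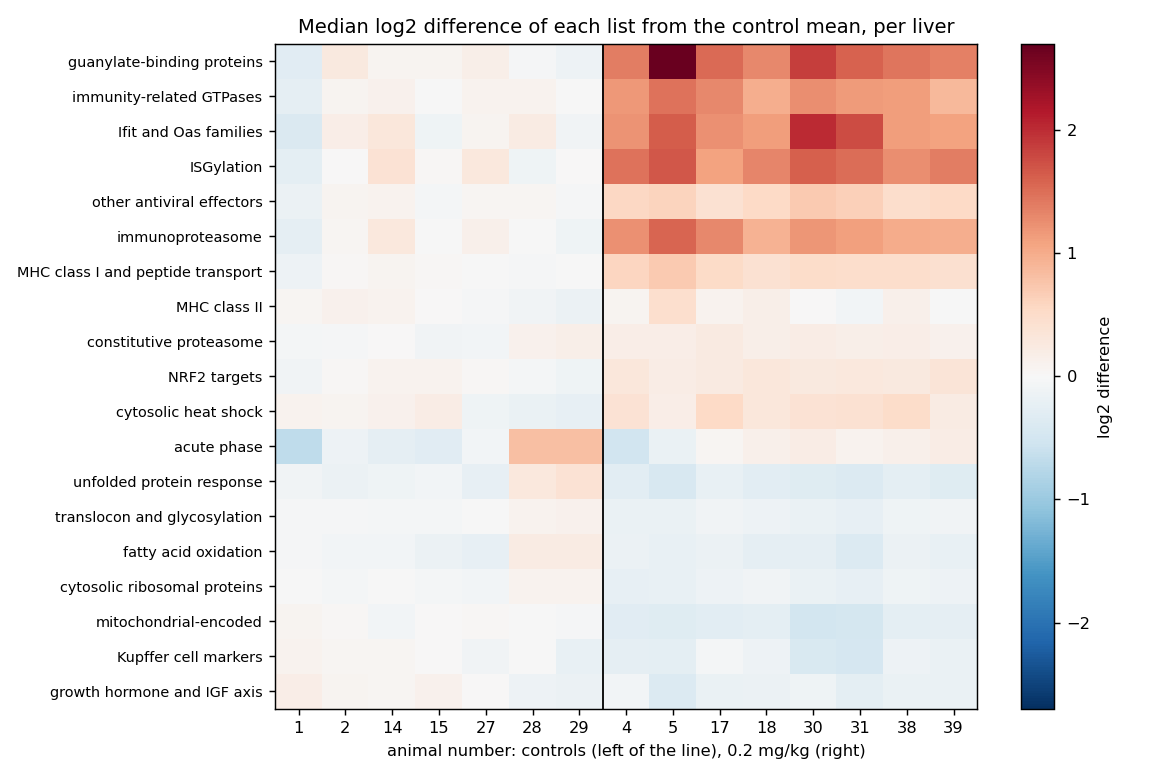
Columns are the 15 livers by animal number (7 controls left of the line, 8 at 0.2 mg/kg right), rows are gene lists, and the colour is the median over the list's tested members of the log2 difference from the control mean. The guanylate-binding protein list is between 1.29 and 2.66 in the treated livers, highest in liver 5, and between -0.32 and 0.26 in controls, and controls 28 and 29 are high in the acute phase list at 0.81 and 0.82.

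Many immune messengers could not be tested. Of 32 chemokines and cytokines listed, 27 were present in the data and 14 passed the filter on low values. Of the 14 tested, 2 were called higher and none lower, where 3.59% of all genes tested were called higher. Cxcl9, a ligand of the T cell receptor CXCR3 that is induced above all by interferon gamma, read 3.68 to 10.9 CPM in controls (median 8.10) and 29.4 to 123 at 0.2 mg/kg (median 36.4; 2.27 ± 0.28, adjusted p = 9.50e-05). Liver 5 held the value of 123, and the next highest held 53.6. Cxcl10, another CXCR3 ligand, rose from a median of 3.63 to 6.53 with overlap (0.86 ± 0.17, adjusted p = 0.00619). Il18bp, the secreted inhibitor of interleukin 18, rose from a median of 7.25 to 15.7 without overlap (1.21 ± 0.19, adjusted p = 9.53e-04). It was 1 of 2 called genes among 13 on a list of cytokine receptors and feedback control of cytokine signalling. The other was an immunity-related GTPase that is also counted in the list of those GTPases.

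Markers of immune and other liver cells moved in part. In bulk RNA fewer cells of a type and less RNA per cell cannot be told apart. Of 18 Kupffer cell genes 3 fell and 2 rose, and the list median was -0.24. Differences of its members ran from -0.64 to 1.21, so the largest change in the list was a rise. It was that of Il18bp, the secreted inhibitor described above, which is not among the 6 defining markers. Vsig4, a complement receptor of Kupffer cells, read 8.54 to 12.6 CPM in controls (median 10.2) and 4.32 to 9.17 at 0.2 mg/kg (median 6.34; -0.64 ± 0.13, adjusted p = 0.00823). The scavenger receptor Cd163 fell by 0.55 ± 0.11 from a median of 1.38 to 0.622 (adjusted p = 0.00481). The iron exporter Slc40a1 (ferroportin), which other liver cells also express, rose from a median of 14.9 to 19.5 (0.44 ± 0.08, adjusted p = 0.00444). The summed level of 6 defining Kupffer markers was 32.7 to 47.4 in controls and 22.65 to 36.8 at 0.2 mg/kg, so the groups overlapped, and none of the 6 was at 0 reads in every liver.

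Monocyte genes were called in part. Of 10 monocyte and macrophage genes 3 rose and none fell, with a median of 0.19. Ly6c2, a surface protein of inflammatory monocytes, read 0.409 to 2.51 CPM in controls (median 1.42) and 1.57 to 16.04 at 0.2 mg/kg (median 6.15; 1.57 ± 0.38, adjusted p = 0.0225). The treated livers differed widely among themselves, and the call was lost without controls 28 and 29 (1.43, adjusted p = 0.0798). Ms4a6c rose from a median of 2.59 to 4.19 (0.59 ± 0.13, adjusted p = 0.0106) and Plac8, which other leukocytes also express, from 13.2 to 20.7 (0.73 ± 0.19, adjusted p = 0.0321). The Plac8 call was lost in 7 of the 15 settings that left out a single liver (adjusted p up to 0.0668) and with no filter on low values. The summed level of 5 defining monocyte markers was 1.23 to 4.14 in controls and 2.92 to 18.8 at 0.2 mg/kg. Of these 5 only Ly6c2 passed the filter on low values, and it made up most of the sum. Ly6c2 averaged 1.46 CPM in controls and 7.29 at 0.2 mg/kg, where the sum had medians of 2.60 and 8.19. Whether monocyte numbers account for any interferon gene was not tested.

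No neutrophil or lymphocyte gene was called, of 3 and 6 tested. S100a8, an abundant neutrophil protein, read 4.36 to 30.1 CPM in controls and 4.86 to 20.8 at 0.2 mg/kg (-0.24 ± 0.36, adjusted p = 0.791). Summed neutrophil markers were 6.54 to 55.65 in controls and 15.7 to 33.6 at 0.2 mg/kg, and summed T and NK cell markers were 2.80 to 6.84 and 3.89 to 8.53. Stellate cell, bile duct and blood cell lists held no called gene, of 11, 3 and 7 tested.

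Of 19 sinusoidal endothelial genes, 1 rose and 2 fell, where 3.59% of all genes tested rose and 1.82% fell. The adhesion protein gene Pecam1 rose, from 7.05 to 19.96 CPM in controls (median 9.01) to 11.2 to 42.7 at 0.2 mg/kg (median 30.9; 1.29 ± 0.30, adjusted p = 0.0167). Its groups overlapped, and without controls 28 and 29 the adjusted p was 0.0675. The water channel Aqp1 and the lectin Clec4g fell by 0.26 and 0.23 (adjusted p of 0.0232 and 0.0484), and both calls were lost without controls 28 and 29. The Aqp1 call was also lost without control 15. That of Clec4g was lost in 18 settings, including most of those that left out a single liver. Summed endothelial markers were 255 to 417 in controls and 268 to 427 at 0.2 mg/kg.

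The acute phase, the liver's secretory response to interleukin 6 and interleukin 1, passed no test. None of 31 genes was called, and the median was 0.04. The list medians of controls 28 and 29 lay 0.81 and 0.82 above the control mean, and those of the other controls at -0.69 to -0.08. Treated livers lay at -0.52 to 0.21, so the spread of the controls limits this comparison. The transport protein albumin (Alb), which falls in that response, read 12318 to 16087 CPM in controls and 10327 to 13313 at 0.2 mg/kg (-0.23 ± 0.07, adjusted p = 0.0515), and it passed without controls 28 and 29 (-0.29, adjusted p = 0.0166). Mt1, a metallothionein, spread from 172 to 6226 in controls, highest in control 29, and from 129 to 1152 at 0.2 mg/kg (-0.79 ± 0.79, adjusted p = 0.664). Differences of these genes among the controls were larger than those between groups.

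Complement was higher in 6 of 26 genes and lower in 1, with a median of 0.08. Mbl2, the mannose-binding lectin that starts the lectin pathway, read 186 to 268 CPM in controls (median 228) and 304 to 428 at 0.2 mg/kg (median 363; 0.66 ± 0.08, adjusted p = 6.13e-05). Component C2 rose from a median of 16.99 to 24.5 (0.53 ± 0.07, adjusted p = 1.40e-04), and the inhibitor Serping1 from 200 to 266 (0.43 ± 0.06, adjusted p = 5.64e-04), both without overlap. None of 21 coagulation genes was called, with a median of 0.02.

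NRF2 is released from its inhibitor KEAP1 by oxidants and electrophiles and turns on genes for glutathione synthesis and conjugation. Of 29 of its targets tested 15 rose and none fell, with a median of 0.24. Ugdh, which makes the UDP-glucuronate used in glucuronidation, read 26.8 to 35.3 CPM in controls (median 31.7) and 51.8 to 67.1 at 0.2 mg/kg (median 62.0; 0.93 ± 0.07, adjusted p = 7.69e-07). Treated and control livers were far apart in this gene. Among glutathione transferases, Gstm3 rose from a median of 42.1 to 71.6, Gstm4 from 9.95 to 17.5 and Gstm1 from 584 to 750 (limma adjusted p of 2.13e-05, 2.62e-04 and 2.51e-04). Their reads may be shared within the family. On the deposited spike-in scale only 2 of the 29 targets passed.

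The wider list of 42 conjugation enzymes held 7 genes that rose, of which Ugt2b35, a glucuronosyl transferase, was the only one outside the NRF2 list (0.52 ± 0.06, adjusted p = 5.60e-05). Among 35 P450 enzymes of families 1 to 3 and their receptors, 1 rose and 1 fell. These shares are near those over all genes tested (3.59% higher and 1.82% lower). The one that rose was Cyp2a5, the mouse coumarin hydroxylase, from a median of 195 to 279 CPM (0.57 ± 0.11, adjusted p = 0.00540). The antioxidant response element, spelled as TGAC, any 3 bases, GC on either strand, was in 12.4% of all promoters and 14.5% of those of genes tested. It was in 16.7% of those of genes called higher and 18.7% of those called lower. Of the called NRF2 targets 14 of 15 matched, and 7 of their 21 promoters (33.3%) held it.

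Cytosolic heat shock genes, which the factor HSF1 turns on when proteins unfold, rose in 8 of 20 cases and fell in none, with a median of 0.38. The list median of controls 27, 28 and 29 was 0.13 to 0.23 below the control mean (-0.23 to -0.13) and that of the other controls 0.08 to 0.20 above it. Treated livers lay at 0.19 to 0.55, so liver 5, the lowest, was below control 15. Without controls 28 and 29 the list held 6 genes that rose, with a median of 0.32, and on the deposited spike-in scale 1 gene. Hsp90aa1, the inducible HSP90 chaperone, read 292 to 390 CPM in controls (median 356) and 480 to 653 at 0.2 mg/kg (median 592; 0.79 ± 0.08, adjusted p = 9.22e-06). Hspa4l rose from a median of 8.18 to 16.6 and the mitochondrial co-chaperone Hspe1 from 392 to 511, without overlap (adjusted p of 5.53e-05 and 2.41e-04). The small chaperone Hspb1 rose from 90.9 to 167 with a slight overlap (0.81 ± 0.12, adjusted p = 4.91e-04). Within the 3 runs of animal numbers the Hspb1 difference was 0.57, 0.62 and 1.08.

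**Figure D4:**
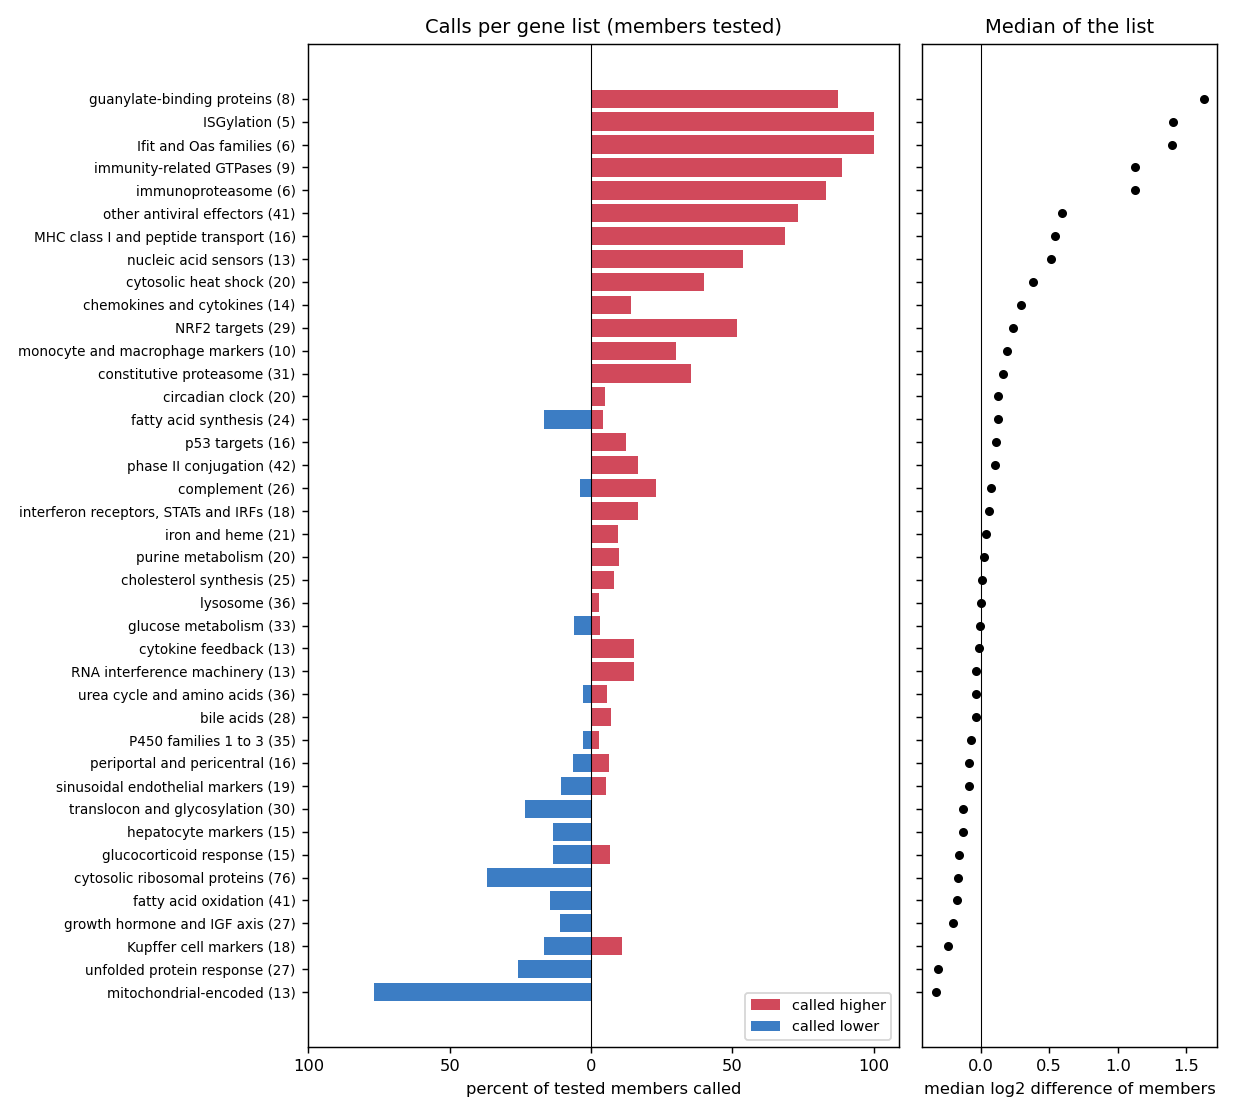
Left, the percent of each list's tested members (number in brackets) called higher (red, to the right) or lower (blue, to the left) at 0.2 mg/kg by limma at an adjusted p of 0.05; right, the median log2 difference of the list. Lists with at least 5 members tested and at least 1 call are shown, from the guanylate-binding proteins with a median of 1.63 to the mitochondrial-encoded transcripts with -0.33.

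Genes of the unfolded protein response that were called fell. This response of the endoplasmic reticulum raises chaperones and the machinery that removes misfolded proteins. Of 27 genes 7 fell and none rose, with a median of -0.32. Sdf2l1, a cofactor of the chaperone BiP, read 16.5 to 33.0 CPM in controls (median 17.8) and 10.4 to 13.1 at 0.2 mg/kg (median 11.7; -0.77 ± 0.13, adjusted p = 0.00172). Every treated liver was below every control, and controls 28 and 29 held the highest values.

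Syvn1 and Sel1l, the ubiquitin ligase and its partner in disposal of misfolded proteins, fell by 0.57 ± 0.11 and 0.38 ± 0.08, and the co-chaperone Dnajb11 by 0.39 ± 0.08 (limma adjusted p of 0.00518, 0.00659 and 0.00987). Controls 28 and 29 raised the control mean of this list, with medians of 0.28 and 0.38 above it, where the other controls lay at -0.21 to -0.08. Without them 7 genes were again called lower, and the list median was -0.16. The Sdf2l1 difference was then -0.55 (adjusted p = 7.01e-05).

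The ER stress element, spelled as CCAAT, any 9 bases, CCACG on either strand, was in 0.119% of all 32851 promoters, 0.175% of those of genes tested and 3 of 7 promoters of the called unfolded protein response genes. These were Syvn1, Ero1b, an ER oxidase, and Dnajc3, a co-chaperone of BiP. The latter pair was chosen for the motif, and their falls of 0.28 ± 0.08 and 0.34 ± 0.10 (adjusted p = 0.0405 and 0.0470) were lost without controls 28 and 29 and when other single livers were left out. Their windows, with 30 bases on each side of the motif and the motif in capitals, are at chr19:6046502-6046580 for Syvn1, chr13:12565652-12565730 for Ero1b and chr14:118937797-118937875 for Dnajc3, all on the plus strand of RefSeq GRCm38.p6. In Ero1b the motif lies on the opposite strand. None overlaps another motif that was searched.
Syvn1: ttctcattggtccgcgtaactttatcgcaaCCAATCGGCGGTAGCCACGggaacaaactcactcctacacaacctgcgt
Ero1b: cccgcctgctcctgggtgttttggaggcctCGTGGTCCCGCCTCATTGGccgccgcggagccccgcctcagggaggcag
Dnajc3: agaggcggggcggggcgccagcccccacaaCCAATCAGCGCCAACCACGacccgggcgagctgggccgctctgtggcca

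Proteins enter the endoplasmic reticulum through the SEC61 channel and the neighbouring TRAP complex. Of 30 genes for protein entry and N-glycosylation 7 fell and none rose, with a median of -0.13. Controls 28 and 29 lay 0.10 and 0.12 above the control mean of this list and the other controls at -0.06 to -0.01, with treated livers at -0.22 to -0.10. Without controls 28 and 29, 6 genes were called lower and the median was -0.10, and on the deposited scale none was called. The TRAP subunit Ssr3 read 33.5 to 43.5 CPM in controls (median 35.9) and 24.5 to 31.2 at 0.2 mg/kg (median 26.9; -0.42 ± 0.07, adjusted p = 0.00122), without overlap. Ssr4 fell by 0.31 ± 0.05 and the channel subunit Sec61a1 by 0.33 ± 0.06 (adjusted p = 0.00204 and 0.00299).

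Of 76 ribosomal protein genes 28 fell by small amounts and 48 passed in neither direction, with a median of -0.17. Rpl32 read 954 to 1109 CPM in controls (median 1070) and 834 to 950 at 0.2 mg/kg (median 888; -0.23 ± 0.04, adjusted p = 0.00161). Rps29 fell from a median of 3045 to 2727 (-0.17 ± 0.03, adjusted p = 0.00218) and Rpl8 from 195 to 159 (-0.27 ± 0.05, adjusted p = 0.00161). The count depended on the scaling, with 53 lower by upper-quartile factors, 47 with RLE factors and none on the deposited spike-in scale. Without controls 28 and 29 it was 18.

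Respiratory chain transcripts of the mitochondrial genome fell in 10 of 13 cases and rose in none, with a median of -0.33, and all 10 separated the groups completely. The gene mt-Cytb, for the cytochrome b subunit of complex III, read 8115 to 9073 CPM in controls (median 8685) and 5739 to 6852 at 0.2 mg/kg (median 6562; -0.44 ± 0.04, adjusted p = 8.48e-06). The complex I subunit mt-Nd1 fell from a median of 8339 to 6216, the complex IV subunit mt-Co3 from 16774 to 12631, and the ATP synthase subunit mt-Atp6 from 24015 to 19592 (limma adjusted p of 4.04e-05, 1.62e-05 and 1.20e-04). All mitochondrial transcripts together took 15.9 ± 0.865% of gene reads in controls (SD, n = 7) and 14.6 ± 0.743% at 0.2 mg/kg (SD, n = 8). The count was 10 with every gene-based scaling by limma and 0 on the deposited spike-in scale, where the median of the list was -0.46.

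Fatty acid oxidation, which PPAR alpha controls in the liver, held 6 genes that fell and none that rose among 41 tested, with a median of -0.17. Acaa1b, a thiolase of peroxisomes, read 357 to 449 CPM in controls (median 419) and 279 to 339 at 0.2 mg/kg (median 316; -0.39 ± 0.05, adjusted p = 2.51e-04). The groups did not overlap.

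The mitochondrial thiolase Acaa2 fell by 0.22 ± 0.04 (adjusted p = 0.00419). The omega-hydroxylase Cyp4a10 fell by 0.70 ± 0.15 from a median of 90.5 to 57.7 (adjusted p = 0.0102), and without controls 28 and 29 by 0.47 (adjusted p = 0.0111). Without both controls 8 genes of the list were called lower, and its median was -0.105. The PPAR element, AGGTCA, any base, AGGTCA, was in 0.0396% of all promoters and in neither of the called genes of this list that matched.

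The 15 largest falls among called genes whose groups did not overlap and whose mean reached 5 CPM in either group included the following 6 genes. Crot, which moves medium-chain acyl groups out of peroxisomes, read 60.4 to 93.2 CPM in controls (median 67.2) and 39.2 to 53.3 at 0.2 mg/kg (median 47.2; -0.59 ± 0.09, adjusted p = 7.69e-04). Slc27a2, a fatty acid transporter and acyl-CoA synthetase, fell by 0.44 ± 0.06 and Mgll, the lipase of monoacylglycerols, by 0.43 ± 0.10 (adjusted p = 4.29e-04 and 0.0144). Without controls 28 and 29, which held the highest values of Crot and Mgll, these falls were 0.46 and 0.27 (adjusted p = 5.92e-04 and 0.0049). Tlcd4, Paqr9 and Mmd, which encode membrane proteins, fell by 0.58, 0.52 and 0.46, each without overlap.

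Fatty acid synthesis was mixed, with 1 gene higher and 4 lower of 24 and a median of 0.13. Controls 28 and 29 lowered the control mean of this list, with medians of -0.19 and -0.20 against it. The other controls lay at 0.05 to 0.10 and treated livers at -0.01 to 0.19, so these overlapped. The genes that fell included the elongases Elovl2 and Elovl5 and the desaturase Fads2 of polyunsaturated fatty acids, by 0.34, 0.43 and 0.22 (adjusted p = 0.00596, 0.0109 and 0.00707). The gene that rose was Tkfc, which phosphorylates the triose from fructose, from a median of 44.2 to 55.2 CPM (0.29 ± 0.04, adjusted p = 3.53e-04). Of 25 cholesterol synthesis genes 2 rose, where 3.59% of all genes tested did. They were Dhcr7 (0.45 ± 0.08, adjusted p = 0.00246) and Sqle, squalene epoxidase (0.35 ± 0.07, adjusted p = 0.00418). None of 27 genes for lipoprotein uptake and export was called, with a median of -0.09.

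Growth factors and glucose metabolism held few calls. Of 27 genes of the growth hormone and IGF axis 3 fell and none rose, with a median of -0.20. Igfbp2, a circulating binder of IGF-1, read 47.7 to 77.3 CPM in controls (median 57.0) and 33.8 to 39.6 at 0.2 mg/kg (median 37.0; -0.67 ± 0.09, adjusted p = 1.76e-04). Igf1 fell from a median of 195 to 162 (-0.27 ± 0.06, adjusted p = 0.00696), both without overlap. Of 33 genes of glucose metabolism 1 rose and 2 fell, shares near those over all genes tested (3.59% higher and 1.82% lower). Those that fell were Pck1, the gluconeogenic PEP carboxykinase (-0.33 ± 0.09, adjusted p = 0.0480), and Tat, tyrosine aminotransferase (-0.30 ± 0.07, adjusted p = 0.0151), and the Pck1 call was lost when single livers were left out. Tat is also on the list of 15 glucocorticoid responsive genes, in which 2 fell and 1 rose.

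In the remaining lists few members were called, and over all genes tested 3.59% were called higher and 1.82% lower. Of 36 urea cycle and amino acid genes 2 rose and 1 fell, of 28 bile acid genes 2 rose, of 36 lysosomal genes 1 rose, of 20 clock genes 1 rose and of 16 p53 targets 2 rose. RNA interference machinery held 2 genes that rose of 13 tested, which were Hsp90aa1 and the kinase gene Eif2ak2 (PKR). Of 21 genes of iron and heme handling 2 rose, Slc40a1 and the heme transporter gene Slc48a1 (0.29 ± 0.08, adjusted p = 0.0306), and the Slc48a1 call was lost when single livers were left out. Of 15 hepatocyte markers 2 fell, Tat and Serpina1a, an alpha-1-antitrypsin gene with near copies (-0.22 ± 0.05, adjusted p = 0.00951). Of 16 zonated hepatocyte genes 1 rose and 1 fell. None of 6 proliferation genes was called.

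Livers given BLT-1 before the same particle dose held less Rtp4 and Iigp1 than the 8 livers without it. The 4 BLT-1 livers come from the first and second runs of animal numbers, 2 from each, whereas 4 of the 8 livers without it come from the third, so the groups differ in run. In a limma fit of all 22 livers, 13 of 9379 genes (0.139%) differed between these groups at an adjusted p of 0.05, and 10 by edgeR. With the run as a term, which was added after the data were seen, 8 genes differed, of which 6 were among the 13. Of the 13, 10 were called higher at 0.2 mg/kg than in controls, as 3.59% of all genes tested were, and these 10 were lower with BLT-1. This comparison shares its 8 livers with that against controls, which favours such a pattern, so values are given side by side. Rtp4 averaged 9.08 ± 0.788 CPM in controls, 22.4 ± 2.29 at 0.2 mg/kg and 12.9 with BLT-1 (mean ± SD; n = 7 and 8, and mean of 4), a log2 difference with BLT-1 of -0.75 (adjusted p = 0.0025). Iigp1 averaged 131, 277 and 155 in the same order (-0.84, adjusted p = 0.0021), Ifi47 8.98, 20.9 and 13.2 (-0.62, adjusted p = 0.032) and Gbp7 3.19, 11.3 and 5.70 (-0.86, adjusted p = 0.047). With the run as a term the calls of Rtp4 and Iigp1 held (-0.74 and -0.82, adjusted p = 0.00999 and 0.00981), and those of Ifi47 and Gbp7 were lost (-0.63 and -0.87, adjusted p = 0.0643 and 0.0826). Other interferon genes did not pass, though some differed as much, such as Igtp (-1.04, adjusted p = 0.0747) and Gbp6 (-1.02, adjusted p = 0.0724). Zbp1 differed less, at 34.7 with BLT-1 (-0.34, adjusted p = 0.72), and H2-D1 was not lower (0.16, adjusted p = 0.337). Pecam1 averaged 11.5, 29.7 and 6.0 (-2.04, adjusted p = 0.0073; -2.28 and 0.00898 with the run as a term). Ugdh, at 61.7 with BLT-1 against 60.5 without, and Sdf2l1, at 10.6 against 11.7, did not pass (adjusted p of 0.97 and 0.87).

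At 2 mg/kg the levels of several of these genes lay nearer to controls than at 0.2 mg/kg. In the same limma fit 657 genes (7.01%) differed between the doses, 574 by edgeR and 752 with the run as a term. Dose cannot be told apart from other traits of the 3 livers, in which Ddx3y averaged 7.52 CPM against 17.7 at 0.2 mg/kg. Hprt averaged 15.3 at 2 mg/kg against 27.9 (-0.84, adjusted p = 6.4e-05). Ugdh averaged 36.4 at 2 mg/kg, 60.5 at 0.2 mg/kg and 31.4 in controls (-0.72 between doses, adjusted p = 8.7e-05). Gstm1 averaged 526.1, 758 and 579 in that order (-0.53, adjusted p = 3.3e-04).

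Sdf2l1, Ssr3 and mt-Cytb differed between doses in the opposite sense. Sdf2l1 averaged 20.9 at 2 mg/kg, 11.7 at 0.2 mg/kg and 21.4 in controls (0.77, adjusted p = 0.0081), Ssr3 37.0, 27.4 and 37.0 (0.42, adjusted p = 0.0034), and mt-Cytb 7670, 6420 and 8693 (0.26, adjusted p = 0.0050). Interferon genes split: Iigp1 was lower at 2 mg/kg than at 0.2 mg/kg (162 against 277, adjusted p = 5.3e-04) and Psmb10 too (115 against 174, adjusted p = 0.0027). Usp18 was higher (12.1 against 6.02, adjusted p = 0.014), as was Ifit1 (49.2 against 18.3, adjusted p = 0.0082).

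**Figure D5:**
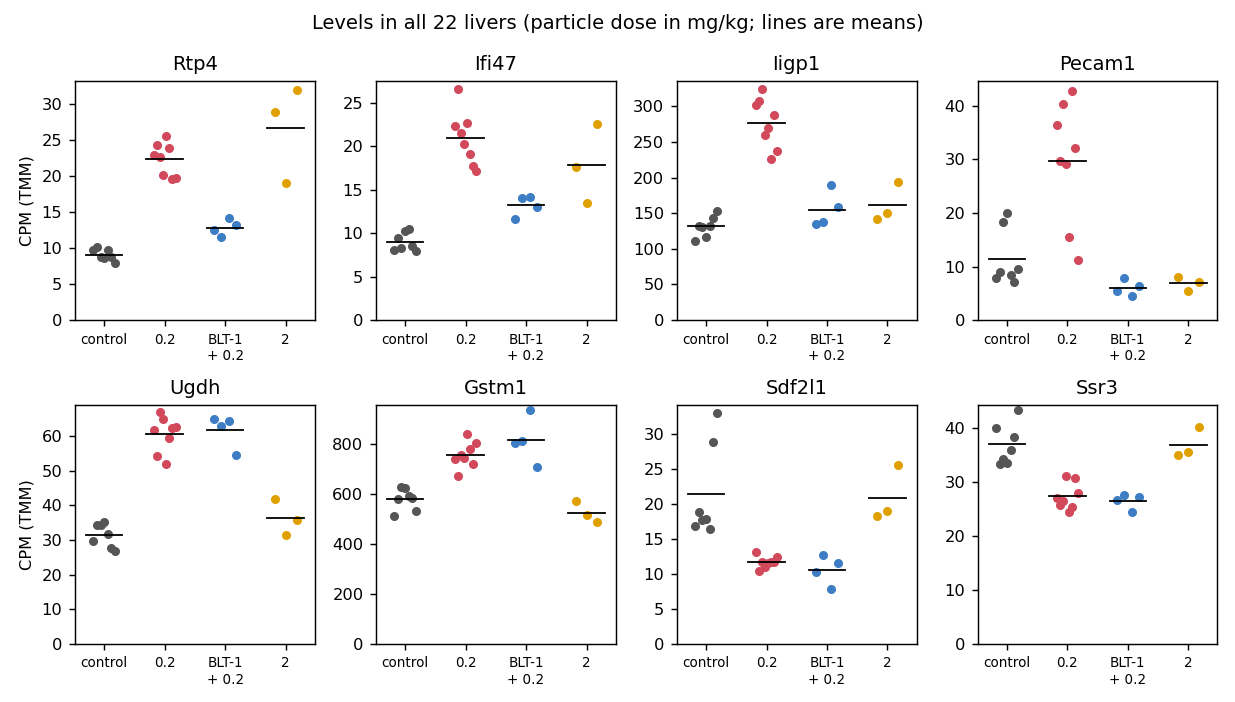
Level in CPM (linear axis from 0) of 8 genes in all 22 livers, by group (control, 0.2 mg/kg, BLT-1 then 0.2 mg/kg, and 2 mg/kg; n = 7, 8, 4 and 3), with a line at each mean. Means of Rtp4, Ifi47, Iigp1 and Pecam1 are lower with BLT-1 than without it (the Ifi47 call is lost with the run as a term), whereas means of Ugdh, Gstm1, Sdf2l1 and Ssr3 are near their level at 0.2 mg/kg with BLT-1 and near that of controls at 2 mg/kg.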

How the data were processed

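RNA of 22 mouse livers was read as 3' end libraries with ERCC spike-ins, per the labels' protocols. Per the submitters' processing notes, bcl2fastq, Trim Galore 0.6.7, STAR 2.7.9a, Salmon 1.5.2, R 4.1.1, DESeq2 1.32.0 and the build GRCm39 were used. The deposited table holds a signal per gene and liver, which the authors had divided by 1 factor per library. Of its 16553 rows, 84 were spike-ins, which were removed. The 22 columns were matched to samples by name and none was left unmatched.

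The signal was rescaled to CPM on gene reads and by TMM factors from genes. Genes at 1 CPM or more in at least 7 of the 15 livers were tested on log2 (value plus 1) with limma 3.58.1 (trend, robust) in R 4.3.3, with Benjamini-Hochberg adjustment over 9379 genes and a limit of 0.05. Whole reads were recovered from the signal by 1 factor per library (100% of values within 0.001), and edgeR 4.0.16 on these reads called 539 genes, DESeq2 1.42.0 called 613. No molecular barcodes were used, so copies of a molecule were not removed. The p-values measure the spread between the animals of this study. Pairs of livers within a group were apart by more than counting noise (chi-square per degree of freedom 10.4 to 65.6 in controls and 10.8 to 39.3 at 0.2 mg/kg).

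The 52 gene lists (1196 symbols, 1147 in the table, 973 tested), the comparison and the naming rule were chosen with earlier results of these data known. Lists were described by counts and medians, with no set test. Named genes were Hprt, the 15 largest rises and 15 largest falls among called genes without overlap and with a group mean of at least 5 CPM, the 8 called genes of highest level, up to 4 called members per list by adjusted p, and, where a list had no call, its 2 members of highest level. Ero1b, Dnajc3 and the genes under other observations fell outside the rule and were chosen after their values were seen. The pipeline was tested on simulated data. Other settings were pseudocounts, filters, size factors, the deposited scale, all 22 livers, a term for the number range, array weights, edgeR, DESeq2, and livers left out. The range term in the comparisons with BLT-1 and 2 mg/kg was added after the data were seen. Promoter sequences are RefSeq, GRCm38.p6, and only names were matched between the builds. A few genes are not reported here.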

Additional observations from a re-analysis of the deposited data

Results flagged for a closer look

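Of 230 groups of values (each printed gene and library measure, in controls and at 0.2 mg/kg), 15 held a liver far from the rest of its group, 3 in controls and 12 at 0.2 mg/kg, where chance flags about 1 in 20 groups. Liver 5 was the highest treated liver in Cxcl9 (123 CPM, next 53.6), Gbp6 (27.6, next 19.1), Gbp2 (23.1, next 11.6), Gbp7 (19, next 13.4), Gbp10 (9.62, next 4.67) and Mpeg1 (25.7, next 20.5). Control 1 was the lowest control in Irf7 (3.13, next 8.39) and Ifi44 (2.32, next 6.99). Liver 30 was the highest in Irf9 (11.3, next 9.08). Liver 31 was the highest in Gstm3 (93.2, next 76.4) and Sqle (18.6, next 15.6), and the lowest in Acaa2 (1861, next 2030) and Dnajc3 (31.2, next 34.9). Liver 38 was the highest treated liver in Clec4g (18.2, next 16.4), and control 15 the highest control in Ero1b (7.53, next 6.69).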

How the results depend on the processing

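The 508 called genes (337 higher, 171 lower) became 92 (73 and 19) on the deposited spike-in scale, of which 75 were among the 508, and 251 (185 and 66) at a limit of 0.01. Lower calls were 286 with upper-quartile factors, 305 by DESeq2 and 257 without controls 28 and 29, where 401 of all 616 calls were among the 508. With 1 liver left out, calls numbered 434 to 562, higher ones 294 to 347 and lower ones 137 to 215, and the Hprt difference was -0.135 to -0.0311. Of 105 called genes named, 94 kept the call in every setting other than the deposited scale and the limit of 0.01, and no named call changed sign. On the deposited scale 68 lost it, and 9 lost it with 1 liver left out (Clec4g, Pck1, Plac8, Irf9, Ly6c2, Aqp1, Ero1b, Dnajc3 and Slc48a1). Causes were not tested. No paired analysis was possible because no animal number is shared between groups. With the run of animal numbers as a term, added after the data were seen, genes that differed with BLT-1 numbered 8 in place of 13.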

Other observations

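Some called genes outside every list, chosen after their values were seen, stood among the firmest rises. AW112010, an interferon-inducible transcript annotated as noncoding, read 153 to 205 CPM in controls (median 174) and 338 to 428 at 0.2 mg/kg (median 376), without overlap (limma log2 difference 1.12 ± 0.06, adjusted p = 4.76e-08). Mpeg1, the pore-forming perforin-2 of macrophages, rose from a median of 7.95 to 19.4 (1.30 ± 0.09, adjusted p = 2.00e-07) while the Kupffer markers Vsig4 and Cd163 fell. Ly6a, the surface protein Sca-1, rose from a median of 17.3 to 45.3 (1.52 ± 0.17, adjusted p = 4.26e-05) and the redox protein gene Txn1 from 343 to 451 (0.40 ± 0.04, adjusted p = 5.82e-06).

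The 12S ribosomal RNA of mitochondria, mt-Rnr1, moved against the mitochondrial messenger RNAs. It read 4892 to 6071 CPM in controls (median 5855) and 7207 to 9753 at 0.2 mg/kg (median 7788), without overlap (0.51 ± 0.06, adjusted p = 5.53e-05). The 16S RNA, mt-Rnr2, read 9413 to 13311 and 10366 to 14108 (0.04 ± 0.08, adjusted p = 0.852). The cause was not tested.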
